A study of Mus musculus with 4 samples.

Results

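The 9 genes described here make up the core of transforming growth factor beta (TGF-β) signalling in T cells: the ligand gene Tgfb1, the receptor genes Tgfbr1 and Tgfbr2, the SMAD genes Smad2, Smad3, Smad4 and Smad7, and the corepressor genes Ski and Skil. They were taken by gene symbol from the deposited gene counts, where they are 9 of 54752 gene identifiers, and the rule that takes them uses their symbols and no measured value. The counts came from naïve CD4+ T cells of mouse spleen that had been cultured for 3 days under conditions meant to give T follicular helper (Tfh) cells, after which the viable cells were sorted and their polyadenylated RNA was sequenced. One group was WT, from littermate control mice, and the other was Mek1/2-tKO, from mice that carried Cd4-Cre with both Map2k1 and Map2k2 floxed (fl/fl), in which Cre under the Cd4 promoter deletes the genes of the kinases MEK1 and MEK2 in the T-cell lineage, each with 2 libraries. Both groups were stimulated with plate-bound anti-CD3 and with anti-CD28. IL-6 and neutralizing antibodies against TGF-β, IL-4, IL-2 and IFN-γ were present in the WT and the Mek1/2-tKO cultures alike. How far TGF-β signalling was blocked was not measured here. The question was how loss of MEK1 and MEK2 changes the RNA of activated CD4+ T cells, and here it is asked of the genes through which a T cell makes, receives and represses TGF-β signals.

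TGF-β1 is secreted in a latent form and, once activated, binds the type II receptor TGFBR2, which recruits and phosphorylates the type I receptor TGFBR1. TGFBR1 phosphorylates SMAD2 and SMAD3, which join SMAD4 and enter the nucleus to regulate genes, while SMAD7 blocks the receptors and SKI and SKIL (also called SnoN) hold SMAD complexes in a repressive state until they are degraded. In CD4+ T cells the pathway restrains activation and cytokine production and takes part in the formation of regulatory and IL-17-producing T cells.

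Each of the 9 genes had 1 row in the count files, and its exons shared no base with another gene on either strand of GRCm38. Tgfb1 (ENSMUSG00000002603.15) lies at chr7:25687002-25705077, Tgfbr1 (ENSMUSG00000007613.15) at chr4:47353222-47414931 and Tgfbr2 (ENSMUSG00000032440.13) at chr9:116084293-116175360. Smad3 (ENSMUSG00000032402.12) lies at chr9:63646767-63757994, and Smad2 (ENSMUSG00000024563.15), Smad4 (ENSMUSG00000024515.13) and Smad7 (ENSMUSG00000025880.11) lie on chromosome 18. Ski (ENSMUSG00000029050.15) lies at chr4:155154075-155222592 and Skil (ENSMUSG00000027660.16) at chr3:31095058-31122577. A gene's count gathers the reads of all its exons and does not separate isoforms.

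The 4 libraries held 16330802 to 18931090 counts, and every one of the 9 genes had between 127 and 3053 counts in each. Of the targeted genes, Map2k1 had 182 and 187 CPM (counts scaled to the same total in each library, by the TMM method) in the WT libraries and 98.0 and 105.1 CPM in Mek1/2-tKO, and Map2k2 had 155 and 165 CPM against 172 and 182 CPM. A whole-gene count also holds reads of transcripts that lack the floxed exons, so it does not check the deletion. The markers of other cells moved with the genotype. The summed level of 15 B-lineage markers was 1970 to 1993 CPM in the WT libraries and 11220 to 11470 CPM in Mek1/2-tKO. That of 12 NK-cell markers was 85.3 to 87.3 and 569.5 to 622.5 CPM. For 8 gamma-delta T-cell markers it was 21.9 to 22.6 and 283 to 289.9 CPM, and for 2 CD8 T-cell markers 59.3 to 67.4 and 213.9 to 238 CPM. Blk, which is on both the B-lineage and the gamma-delta list, had 14.9 and 17.8 CPM in WT and 104.8 and 116.3 CPM in Mek1/2-tKO. Its level was thus most of the gamma-delta sum in WT. Trdc, on the gamma-delta list alone, had 1.64 and 1.56 CPM in WT and 57.9 and 53.6 CPM in Mek1/2-tKO. All 6 tested gamma-delta markers were called higher. Most of the NK-cell sum came from Nkg7, at 62.8 and 65.2 CPM in WT and 436.5 and 405 CPM in Mek1/2-tKO. Of the 12 NK-cell markers 10 were called higher and 1, Itga2, lower, while Klra1 was not called. The 10 myeloid markers summed to 2.36 to 2.96 CPM in the WT libraries and 21.7 to 28.8 CPM in Mek1/2-tKO. Cd4 itself, which defines the labelled cell type, was at 297 and 289.5 CPM in the WT libraries and at 18.8 and 25.1 CPM in Mek1/2-tKO, and of the 12 markers of CD4 alpha-beta T cells 6 were called lower (Cd4, Cd3e, Trac, Cd5, Bcl11b and Zbtb7b) and 1 higher, with a median log2 fold change of -0.76. Their summed level, 2987 to 2997 CPM in WT against 2532 to 2698 CPM, includes the marker called higher, Thy1, which other T cells also express and which rose from 567 to 1009 CPM. In bulk RNA, fewer cells of a type and less RNA per cell cannot be told apart, and the part of other cells in each result given here was not tested.

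Among the 9 genes, Tgfbr2 was called higher and Ski lower in Mek1/2-tKO cells. A gene was called when edgeR's quasi-likelihood test gave a Benjamini-Hochberg adjusted p under 0.05 over all 14330 genes tested and the fold change was at least 1.5. By this rule 1 of the 9 was called higher and 1 lower, where 19.3% of all tested genes were called higher and 16.4% lower, and the members' shares, 11.1% in each direction, were not above these. Their median log2 fold change was -0.23, against 0.016 over all tested genes. By the adjusted p alone 2 of the 9 were higher, where 27.8% of all tested genes were, and 3 were lower, where 27.2% were. Both Mek1/2-tKO libraries lay above both WT libraries for 3 of the 9 and below them for 5, and the same held for 39.5% and 38.8% of all tested genes.

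**Figure D1:**
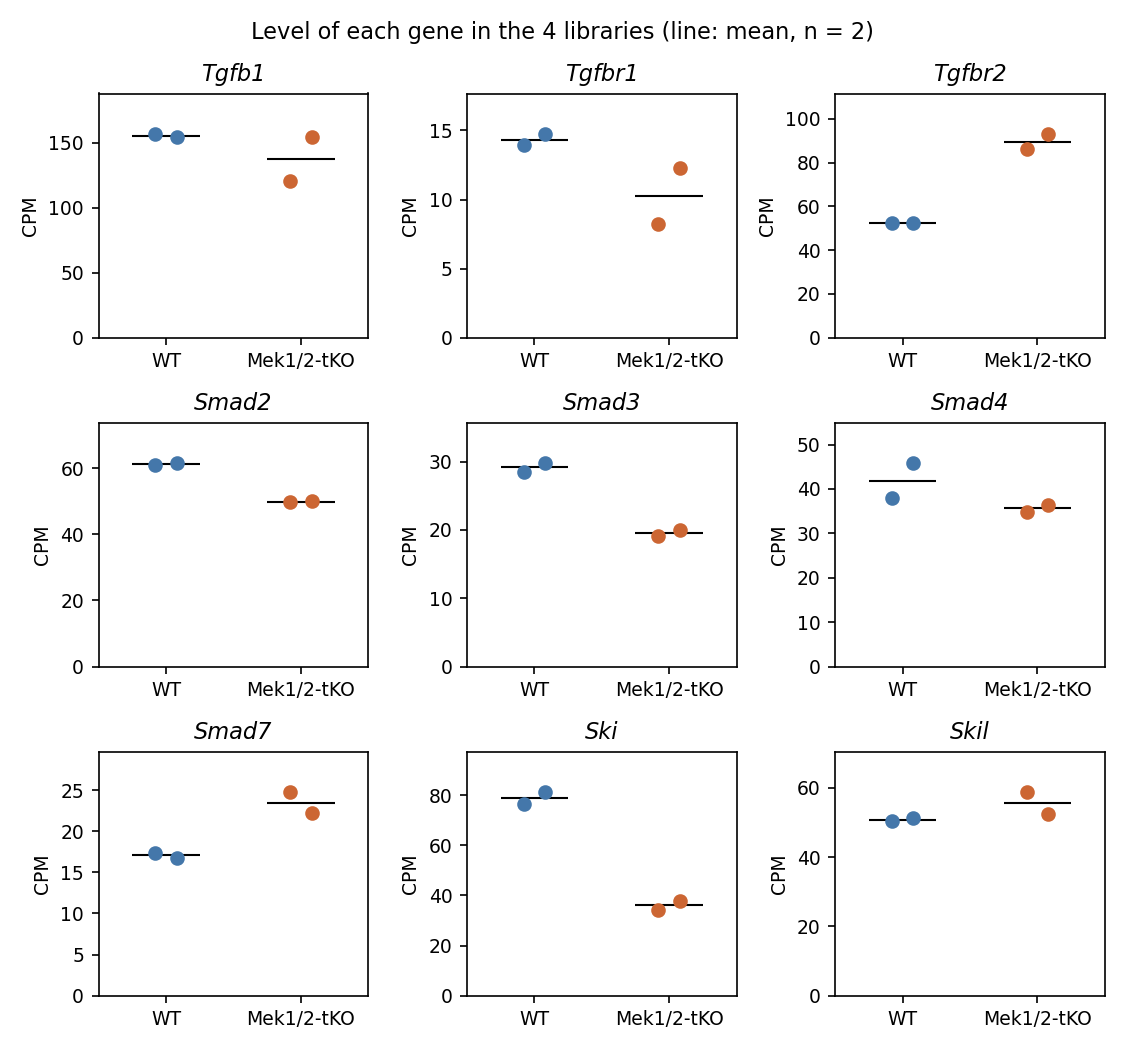
Level of each of the 9 genes in the 4 libraries, in CPM on axes that start at 0, with 1 point per library and a line at the mean of each genotype. The genotypes are farthest apart for Ski, at 76.5 and 81.2 CPM in the WT libraries and 34.2 and 37.9 CPM in Mek1/2-tKO, and for Tgfbr2, at 52.2 CPM in both WT libraries and 86.2 and 92.9 CPM in Mek1/2-tKO, and they overlap for Tgfb1.

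Tgfb1, the ligand, had the highest level of the 9 genes per exon length in both genotypes. Its level was 156.7 and 154.3 CPM in the WT libraries and 121 and 154.6 CPM in the Mek1/2-tKO libraries. The groups overlapped, since the second Mek1/2-tKO library lay between the WT libraries and the first alone lay below them. The log2 fold change of Mek1/2-tKO over WT was -0.17 ± 0.10 (SE, n = 2 per genotype, 95% interval -0.39 to 0.050, adjusted p = 0.176 by edgeR's quasi-likelihood test). Without the first Mek1/2-tKO library it was -0.0072, and without the second it was -0.37, with an edgeR adjusted p of 7.82e-05 but under the 1.5-fold threshold.

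Of the receptor genes, Tgfbr2 rose and Tgfbr1 did not pass the test. Tgfbr2, which binds the ligand, had 1017 and 1006 counts in WT and 1334 and 1745 in Mek1/2-tKO, or 52.2 CPM in both WT libraries and 86.2 and 92.9 CPM in Mek1/2-tKO. Both Mek1/2-tKO libraries lay above both WT libraries, and the mean rose by 71.6%, with a log2 fold change of 0.78 ± 0.096 (SE, n = 2 per genotype, 95% interval 0.57 to 0.99, adjusted p = 1.32e-05 in the edgeR quasi-likelihood fit). Its log2 fold change lay between 0.72 and 0.83 when any 1 library was left out. Tgfbr1, the kinase that TGFBR2 activates, had the lowest counts of the 9 genes, 272 and 284 in WT and 127 and 231 in Mek1/2-tKO, or 13.96 and 14.7 CPM against 8.20 and 12.3 CPM. Both Mek1/2-tKO libraries lay below both WT libraries but far from each other. The log2 fold change of Tgfbr1 was -0.48 ± 0.20 (SE, n = 2 per genotype, 95% interval -0.91 to -0.039) and did not pass the test, with an edgeR adjusted p of 0.0614. It was -0.22 without the first Mek1/2-tKO library, and without the second it was -0.81 and called, with an edgeR adjusted p of 0.00217.

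The sequence just upstream of Tgfbr2 is shown because this was the only member called higher. Promoter windows from 250 bases before to 50 bases after a start of the gene were taken from RefSeq (build GRCm38.p6). Such a start need not be the 5′ end of the gene as counted. The set of windows at hand held 6 for 5 of the 9 genes (Tgfb1, Smad3, Tgfbr2 and Ski with 1 each and Tgfbr1 with 2). They were searched on both strands, after the values were known, for 4 motifs: the SMAD box core CAGAC, the AP-1 motif TGANTCA, the ETS motif CCGGAAG and the GC box GGGCGG, none of which overlapped another in the windows printed here. The Tgfbr2 window, chr9:116175314-116175613 on the minus strand and shown 5′ to 3′ in the direction of the gene, had 59.0% G and C against a median of 52.7% over all 32851 windows. It held 1 SMAD box core, in capitals, and no match to the other 3 motifs.
Tgfbr2: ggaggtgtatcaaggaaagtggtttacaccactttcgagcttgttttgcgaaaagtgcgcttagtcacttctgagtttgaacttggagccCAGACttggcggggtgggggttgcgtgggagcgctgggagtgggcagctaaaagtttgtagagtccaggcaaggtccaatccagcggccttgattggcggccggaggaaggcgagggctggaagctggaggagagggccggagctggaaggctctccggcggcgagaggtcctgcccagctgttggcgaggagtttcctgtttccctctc
A SMAD box core was present in 49.6% of all windows, an AP-1 motif in 7.81%, an ETS motif in 8.86% and a GC box in 35.7%, so this match is a description of the letters and not a site.

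Of the corepressors, Ski fell and Skil did not pass the test. Ski, the founding member of this family, had 1490 and 1565 counts in WT and 529 and 711 in Mek1/2-tKO, or 76.5 and 81.2 CPM against 34.2 and 37.9 CPM. Both Mek1/2-tKO libraries lay far below both WT libraries, and the difference was the largest of the 9 genes. Its mean level dropped by 54.3%, with a log2 fold change of -1.13 ± 0.10 (SE, n = 2 per genotype, 95% interval -1.35 to -0.90, adjusted p = 1.00e-06 by edgeR's quasi-likelihood test). Leaving out any 1 library gave -1.21 to -1.06. Skil, whose protein shares the SMAD-binding role of SKI, had 50.5 and 51.2 CPM in the WT libraries and 58.8 and 52.4 CPM in Mek1/2-tKO. The genotypes did not overlap, but they lay close together, with a log2 fold change of 0.13 ± 0.10 (SE, n = 2 per genotype, 95% interval -0.097 to 0.35, edgeR adjusted p = 0.319).

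The Ski window, chr4:155222486-155222785 on the minus strand, is shown because this was the member that fell most. It had 85.3% G and C and held 6 GC boxes, in capitals on either strand, and no SMAD box core, AP-1 or ETS motif. The 5′ end of Ski as counted, chr4:155222592, lies within this window, so part of the window is exon.
Ski: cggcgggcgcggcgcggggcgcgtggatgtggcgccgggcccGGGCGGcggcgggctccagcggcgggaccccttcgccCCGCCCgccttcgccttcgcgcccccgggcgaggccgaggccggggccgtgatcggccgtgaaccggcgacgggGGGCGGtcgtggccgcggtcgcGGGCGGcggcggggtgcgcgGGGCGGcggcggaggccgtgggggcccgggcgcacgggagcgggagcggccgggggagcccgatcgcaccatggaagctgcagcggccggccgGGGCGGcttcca
The Tgfb1 window also held 6 GC boxes, that of Smad3 held 2, and the Tgfbr1 windows held 2 GC boxes in one and 1 SMAD box core in the other. The Tgfbr1 window with the SMAD box core, from chr4:47385966, lies inside the span of the gene as counted. No AP-1 or ETS motif was found in any of the 6 windows, which says only that these letters were not there.

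The patterns most like that of Ski were those of Mybl2, Nsd2 and Slc7a5. Likeness was measured as the Euclidean distance between the log2 CPM values of the 4 libraries, each gene centred on its own mean, over 9605 genes whose average log2 CPM reached at least 3. The distance to Ski was 0.036 for Mybl2, 0.038 for Nsd2 and 0.052 for Slc7a5, and their log2 fold changes were -1.14, -1.13 and -1.09. With 4 libraries in 2 groups, such a distance mostly compares genotype differences.

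The receptor-regulated SMAD genes were both lower in Mek1/2-tKO by adjusted p but stayed under the 1.5-fold threshold. Smad2, which TGFBR1 phosphorylates, had 61.0 and 61.5 CPM in the WT libraries and 49.87 and 49.90 CPM in Mek1/2-tKO. The libraries of each genotype lay close together and the genotypes apart, with a log2 fold change of -0.30 ± 0.098 (SE, n = 2 per genotype, 95% interval -0.51 to -0.083, edgeR adjusted p = 0.0209). Without the first or the second WT library the Smad2 adjusted p in the edgeR fit was 0.122 or 0.141, no longer under the threshold. Smad3, the other substrate of the receptor, which binds DNA directly, had 28.5 and 29.8 CPM in the WT libraries and 19.1 and 20.0 CPM in Mek1/2-tKO. These groups did not overlap either, and the WT level was 1.49-fold that of Mek1/2-tKO, just short of the threshold, with a log2 fold change of -0.57 ± 0.13 (SE, n = 2 per genotype, 95% interval -0.85 to -0.29, edgeR adjusted p = 0.00207). Smad3 was called lower without the first WT library, at -0.61, and without the second Mek1/2-tKO library, at -0.62. The difference between the log2 fold changes of Smad2 and Smad3 was not tested.

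Smad4, the partner shared by all activating SMADs, had 37.9 and 45.8 CPM in the WT libraries and 34.9 and 36.5 CPM in Mek1/2-tKO. The WT libraries differed from each other by more than the lower of them differed from either Mek1/2-tKO library. Its log2 fold change was -0.23 ± 0.12 (SE, n = 2 per genotype, 95% interval -0.49 to 0.032, edgeR adjusted p = 0.127), and it lay between -0.36 and -0.089 when 1 library was left out. Smad7, the inhibitory SMAD, had 17.4 and 16.8 CPM in the WT libraries and 24.7 and 22.2 CPM in Mek1/2-tKO. Both Mek1/2-tKO libraries lay above both WT libraries, by 1.38-fold on the fitted scale, with a log2 fold change of 0.46 ± 0.14 (SE, n = 2 per genotype, 95% interval 0.15 to 0.77, edgeR adjusted p = 0.0143). Its edgeR adjusted p was 0.0777 without the second WT library and 0.053 without the first Mek1/2-tKO library. With all 4 libraries Smad7 thus passed the adjusted p and not the fold threshold, with a sign opposite to those of Smad2, Smad3 and Smad4.

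**Figure D2:**
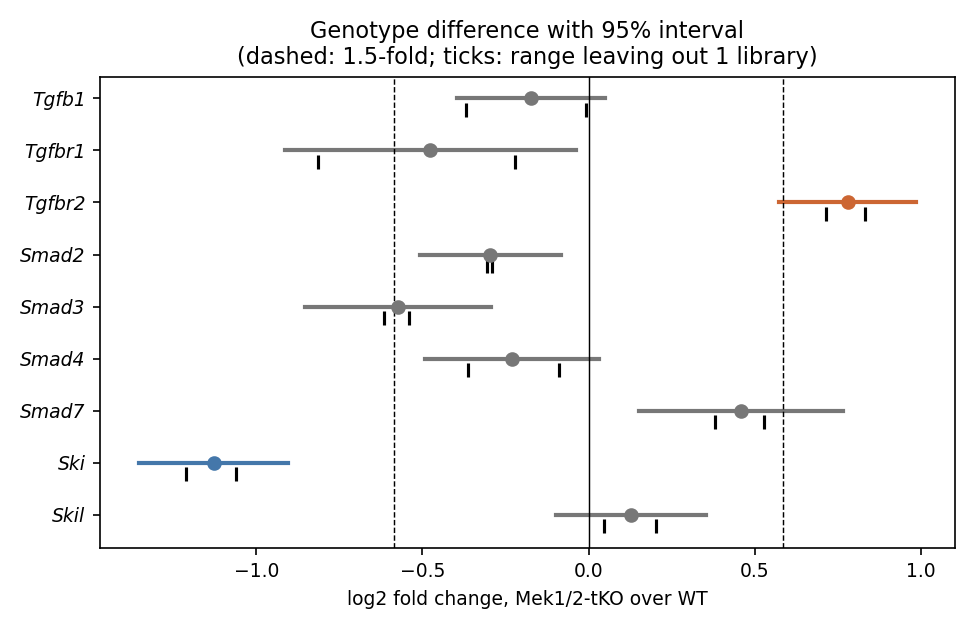
Log2 fold change of Mek1/2-tKO over WT for the 9 genes (points, with the 95% interval of the edgeR fit as bars), with dashed lines at 1.5-fold and short ticks at the lowest and highest value when 1 library was left out. Ski (blue) was called lower at -1.13 and Tgfbr2 (orange) called higher at 0.78, the 7 genes in grey were not called, and the ticks are widest for Tgfbr1, at -0.81 and -0.22.

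To compare levels between genes, counts were divided by exon length and by the TMM-scaled library size (FPKM, which is CPM per kilobase of exon). In WT the mean level was 30.8 ± 0.33 FPKM (SD, n = 2, as are the next values) for Tgfb1, 17.2 ± 0.099 for Smad2, 14.2 ± 0.60 for Ski, 11.3 ± 1.5 for Smad4, 6.37 ± 0.0012 for Tgfbr2, 5.26 ± 0.16 for Smad3, 5.25 ± 0.058 for Skil, 3.77 ± 0.093 for Smad7 and 2.20 ± 0.083 for Tgfbr1. Smad3 and Skil overlapped, and all other neighbours in this order were apart in both libraries. In Mek1/2-tKO the ligand and Smad2 stayed first and second, at 27.3 ± 4.7 and 14.1 ± 0.0066 FPKM, followed by Tgfbr2 at 10.9 ± 0.58, Smad4 at 9.61 ± 0.30, Ski at 6.47 ± 0.47, Skil at 5.74 ± 0.46, Smad7 at 5.19 ± 0.40, Smad3 at 3.53 ± 0.12 and Tgfbr1 at 1.57 ± 0.44. There Skil and Smad7 overlapped and the other neighbours did not. Tgfbr2 ranked 5 in WT and 3 in Mek1/2-tKO, and Ski ranked 3 in WT and 5 in Mek1/2-tKO. These levels count all annotated exons in a gene's length, so they are low for a gene that uses few of them.

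Ratios between genes of 1 library do not depend on how the library was scaled, and 6 of them were formed. Tgfbr2 stood to Tgfbr1 at 2.98 and 2.83 in WT and at 8.38 and 6.03 in Mek1/2-tKO, a mean of 2.91 against 7.21. Ski stood to Skil at 2.64 and 2.76 in WT and at 1.01 and 1.26 in Mek1/2-tKO, so the paralogs were close to the same level per length in the Mek1/2-tKO libraries and not in WT. The inhibitory Smad7 was below Smad3 in WT, at 0.745 and 0.69, and above it in Mek1/2-tKO, at 1.59 and 1.36. Smad7 to Smad4 was 0.375 and 0.30 in WT and 0.582 and 0.50 in Mek1/2-tKO, Smad2 to Smad3 was 3.34 and 3.22 against 4.07 and 3.89, and Tgfb1 to Tgfbr2 was 4.87 and 4.80 against 2.28 and 2.70. The genotypes did not overlap in any of the 6 ratios, and 78.3% of all tested genes taken singly did not overlap either. The share over all pairs of genes was not formed. No ratio was tested, since an exact two-sided permutation test of 2 against 2 libraries cannot give a p below 0.333. The 6 ratios also share members and libraries.

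**Figure D3:**
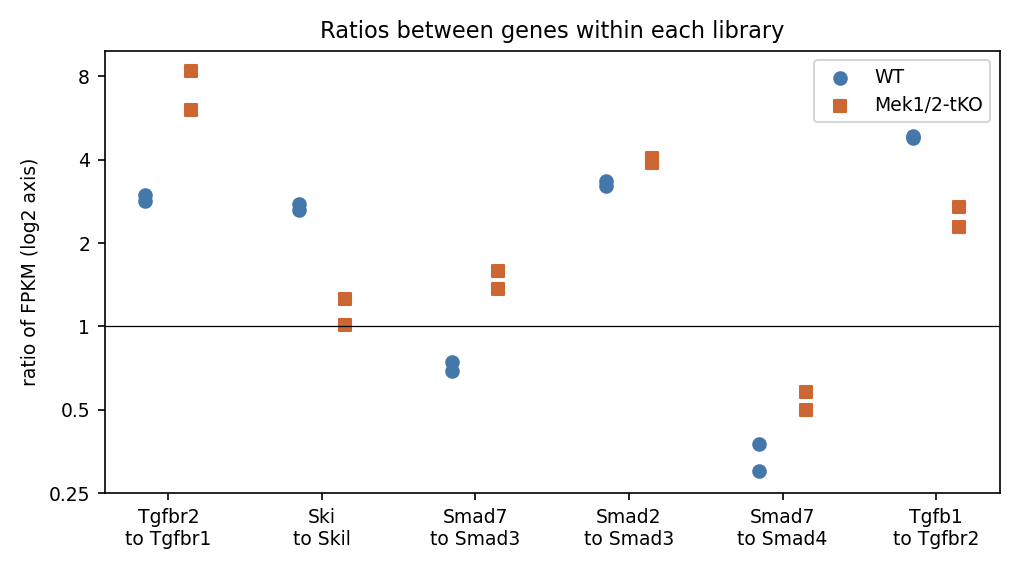
Ratios of FPKM between 6 pairs of the genes within each library, on a log2 axis, with circles for the 2 WT and squares for the 2 Mek1/2-tKO libraries and a line where both genes of a pair are at the same level. Smad7 to Smad3 lies below the line in WT (0.745 and 0.69) and above it in Mek1/2-tKO (1.59 and 1.36), and Ski to Skil comes down from 2.64 and 2.76 to 1.01 and 1.26.

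The wider pathway was described by 108 further genes in 8 lists, of which 94 were tested. Among these 21 were called higher (22.3%) and 25 lower (26.6%), beside 19.3% and 16.4% of all tested genes, and their median log2 fold change was -0.28. The share called lower was 44.4% of the tested other receptors, 38.5% of the corepressors and coactivators and 33.3% of the SMAD-independent genes, but 12.5% of the turnover genes, below the share over all genes, and 1 of 4 SMADs and adaptors. The share called higher was 38.1% of the induced and 52.6% of the repressed targets, and the share called lower was 14.3% and 26.3%. Of the tested ligand and activation genes 25% were called higher and 37.5% lower. No list was tested as a set. The lists were chosen with earlier results of these data known, so their shares are descriptions only.

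Of 13 other ligand and activation genes, 8 were tested, 2 were called higher and 3 lower. Tgfb3, another TGF-β ligand, rose from a mean of 1.45 to 15.1 CPM (log2 fold change 3.38 ± 0.25, SE, n = 2 per genotype, edgeR adjusted p = 1.27e-07). Nrros, which tethers latent TGF-β on myeloid cells, rose from 65.0 to 114.6 CPM, where Lrrc32, which does so on regulatory T cells, fell from 7.29 to 3.02 CPM. Itgav, the integrin alpha V subunit that helps to activate latent TGF-β, fell from 37.6 to 21.3 CPM. Furin, which cleaves the TGF-β precursor, was not called, at 132.8 and 144.8 CPM. Of 12 other receptors of the family, 9 were tested, 4 were called lower and the other 5 were not called. The largest of these differences among the genes named was that of Tgfbr3 (betaglycan), a coreceptor that presents ligand to TGFBR2, which had 29.7 and 34.3 CPM in the WT libraries and 2.26 and 3.57 CPM in Mek1/2-tKO (log2 fold change -3.43 ± 0.21, SE, n = 2 per genotype, edgeR adjusted p = 1.46e-08). Tgfbr3 and Tgfbr2 thus differed between the genotypes in opposite directions. The BMP receptor genes Bmpr2 and Bmpr1a fell as well, from 4.36 to 1.43 and from 6.09 to 3.63 CPM.

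Inside the cell, 1 of 4 tested genes of other SMADs and adaptors was called, Tgfbrap1, which binds the receptors and fell from 28.7 to 16.9 CPM. Smad6, the other inhibitory SMAD gene, had a mean of 0.156 CPM in the WT libraries and 0.331 CPM in Mek1/2-tKO and was too low to be tested. Of 16 genes of receptor, SMAD and SKI turnover, 1 was called higher and 2 lower. Usp11, a deubiquitinase of the type I receptor, rose from 4.80 to 11.8 CPM, while Usp9x, which deubiquitinates SMAD4, fell from 75.2 to 33.9 CPM and Trim33, a ubiquitin ligase that binds SMADs, from 50.1 to 29.8 CPM. Rnf111 (Arkadia), the ligase that marks SKI and SKIL for degradation, was not called (log2 fold change 0.14, edgeR adjusted p = 0.494), nor were the ligases Smurf1 (-0.50, edgeR adjusted p = 0.0217) and Smurf2 (-0.34, edgeR adjusted p = 0.0691).

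Of 13 further corepressors and coactivators, 5 were called lower and the other 8 were not called. Ncor1, a corepressor that SKI recruits, fell from 145.0 to 82.4 CPM. Sin3a, the scaffold of a histone deacetylase complex, fell from 63.8 to 37.4 CPM and the kinase gene Hipk2 from 20.1 to 11.9 CPM. Tgif1, a SMAD corepressor, had a log2 fold change of 0.45 and was under the fold threshold. Of 9 genes of SMAD-independent TGF-β signalling, 3 were called lower and the other 6 were not called: Traf6, from 92.8 to 52.0 CPM, Mapk14, which encodes p38α, from 93.2 to 53.3 CPM, and Rock1, from 66.9 to 40.9 CPM.

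Genes that TGF-β is known to induce or repress in lymphocytes were then read in the same fit, with the antibody against TGF-β present in both cultures. Of 21 tested induced targets, which include Ski, Skil and Smad7, 8 were called higher and 3 lower. Il9 rose from 1.21 to 15.5 CPM, Cdkn2b from 0.568 to 4.92 CPM and Cd83 from 172.8 to 453 CPM, whereas Lag3 fell from 107 to 23.3 CPM. The induced genes Pmepa1 (log2 fold change -0.37, edgeR adjusted p = 0.0317) and Itgae (0.55, edgeR adjusted p = 0.538) were not called. Itgae had 18 counts in each WT library and 5 and 44 in the Mek1/2-tKO libraries, which lay on either side of WT. Of 19 tested repressed targets, 10 were called higher and 5 lower. Klf2, a regulator of T-cell recirculation, and its target S1pr1 rose from means of 5.58 and 6.19 CPM by log2 fold changes of 4.16 and 3.92, Ifng rose from 124 to 1913 CPM, and Il2 fell from 112.3 to 12.6 CPM. Il2 and Ifng, both on the repressed list, thus moved in opposite directions. The summed levels of the B-lineage, NK-cell and gamma-delta T-cell markers moved with the same contrast, and their part in these target genes was not tested.

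**Figure D4:**
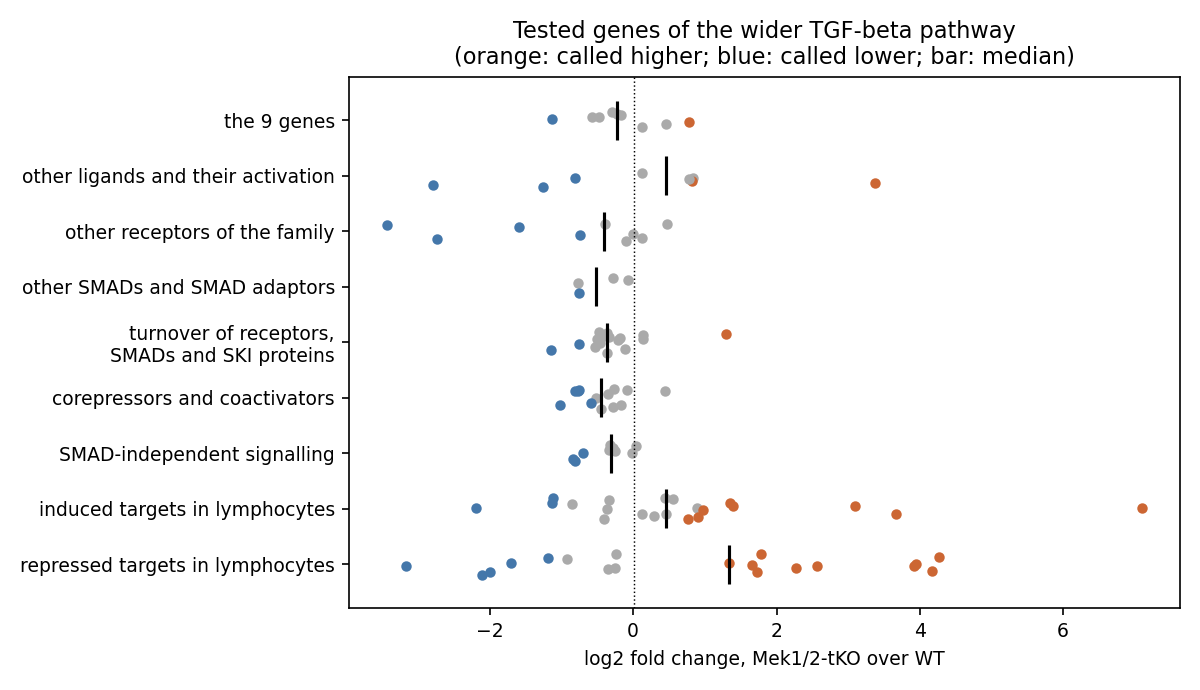
Log2 fold change of Mek1/2-tKO over WT for each tested gene of the 9 genes and of the 8 wider lists, with 1 point per gene, orange for genes called higher, blue for genes called lower, grey for the rest and a bar at the list's median. The 9 genes span -1.13 to 0.78 around a median of -0.23, while the repressed targets hold 10 genes called higher and 5 called lower around a median of 1.34.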

How the data were processed

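RNA of day 3 Tfh-polarized cells was sequenced in 2 WT and 2 Mek1/2-tKO libraries. The authors trimmed the reads with Trimmomatic 0.36, mapped them to GRCm38 (the methods write the mapper as STRA) and deposited unnormalized counts per gene made with featureCounts of Subread 1.5.1. The kit keeps strand. Neither the annotation release nor whether strand was used in counting is given in the sources used here.

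Symbols were found for 54723 of 54752 identifiers, and the other 29 entered the fit without a symbol. The counts were fitted in edgeR 4.0.16 (R 4.3.3) with genotype as the only term (filterByExpr, TMM, robust quasi-likelihood test, Benjamini-Hochberg adjustment over 14330 genes). The thresholds (0.05 for the adjusted p, 1.5 for the fold change) follow the study's methods. CPM and FPKM are TMM-scaled. On simulated counts of this comparison, edgeR recovered 96% of 200 genes changed 2-fold among 14023 genes, with 4 unchanged genes called. In the data 35.8% of tested genes were called, and of the members only Ski differed by at least 2-fold. The simulated share therefore does not describe how well smaller changes are found. Alternatives are DESeq2 1.42.0, other scalings, filters and thresholds, a replicate block and leaving out each library.

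The members, taken by symbol alone, and the gene lists were chosen with earlier results of these data known. All 9 members are named. Per wider list, up to 4 called genes (average log2 CPM of 1 or more) with the largest absolute log2 fold change are named, along with Rnf111, Smurf1, Smurf2, Pmepa1, Tgif1, Itgae, Smad6 and Furin. The 3 genes most like the member with the largest change are also named. One gene that this rule takes in is not reported here. Figures were drawn in Python 3.11.15 with matplotlib 3.10.9.

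The labels do not say that the libraries came from separate mice or cultures, so p-values measure the spread between these libraries, which may be technical. Sampling noise alone did not account for the replicate differences (chi-square per gene: WT 3.58, Mek1/2-tKO 8.16). A count of 0 allows up to 3 counts, at most 0.184 CPM, which covers counting error only.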

Additional observations from a re-analysis of the deposited data

How the results depend on the processing

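No member changed sign under any alternative run, and Ski stayed called lower under each of them. Tgfbr2 stayed called higher except at a fold change of at least 2, where its log2 fold change of 0.78 no longer passed, leaving 0 members called higher (edgeR; Tgfbr2 and Smad7 were higher at an unadjusted p under 0.05, and DESeq2 called Tgfbr2 at 1.5-fold). At that threshold 1725 genes were higher, 1040 lower, and of the other pathway genes 17 were higher and 14 lower, where the 1.5-fold threshold gave 21 and 25. With no fold threshold 3983 genes were higher and 3903 lower, and 2 members were higher and 3 lower. Smad2 (-0.30), Smad3 (-0.57) and Smad7 (0.46) joined the calls there. Of the other pathway genes 22 were then higher and 44 lower. Smad3 was also called with library size alone (-0.66) and with no filter (-0.59), which gave 2 members lower each. Leaving out 1 library gave 1 to 3 members lower, with Tgfbr1 between -0.81 and -0.22 and Smad3 between -0.62 and -0.54; a lone library was assumed to vary like the other genotype. The replicate numbers were not taken to pair libraries, since only 2 pairs exist (deviations of same-numbered libraries correlated at 0.131), and with the replicate block 2652 genes were higher and 2300 lower, with 1 member called in each direction. Tgfbr1 had the fewest reads and the largest standard error of the 9. Where no library was left out, its adjusted p was 0.0306 to 0.0676 in the edgeR alternatives and 0.117 in DESeq2.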
